A study of Mus musculus with 6 samples.

Results

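Autophagy genes were followed in macrophages on their way to becoming osteoclasts, the cells that resorb bone. A list of 36 genes of the autophagy machinery was taken, and each gene was read from the probe set that carried its symbol alone and had the highest mean log2 intensity over the 6 arrays. Of the 36 genes, 35 were measured, among 18193 genes on the array; Optn, a cargo receptor, was not analysed here. The 3 knockin (KI) arrays came from bone marrow macrophages of knockin mutant mice and the 3 wild-type (WT) arrays from those of wild-type mice, both on the C57BL/6 strain per the labels. All cells had M-CSF, which keeps macrophage precursors alive, at 44 ng/ml and RANKL, the cytokine that drives them to osteoclasts, at 100 ng/ml for 24 hours, and no array without RANKL was analysed here. Per the series title the study concerns genes regulated through IVVY, a motif inside the cell on RANK, the receptor of RANKL. The labels do not give the altered residues, nor whether the 3 replicates came from separate animals or cultures, so that p-values measure the spread between these samples, which may be technical. These are bulk RNA values, in which fewer cells of a type and less RNA per cell cannot be told apart.

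Autophagy carries pieces of cytoplasm to the lysosome. The ULK kinase complex starts it, a class III PI3-kinase complex marks the membrane, and lipid carriers such as ATG9 and ATG2 feed the growing phagophore. Then 2 ubiquitin-like reactions attach LC3 and GABARAP proteins to that membrane, cargo receptors bind them, and the HOPS complex tethers the closed autophagosome to the lysosome. In mouse osteoclasts Atg5, Atg7, Atg4b and LC3 are also known to act in directing lysosomal contents to the ruffled border, the membrane that faces bone, and SQSTM1 is mutated in Paget disease of bone in humans.

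The arrays differed mainly by genotype, with 78.6% of the variance across genes on the first principal component, on which KI 1 and WT 1 lay farthest out on their sides (-40.44 and 49.43, against -24.06 and -29.95 for the other KI arrays and 22.80 and 22.23 for the other WT arrays). The median intensity of an array lay between 83.01 and 84.79. All 7 macrophage markers (Csf1r and Lyz2 among them) lay above the median of all probe sets, which a mean log2 of 6.40 marks, as did 6 of 7 osteoclast markers, the exception being Calcr. Tnfrsf11a, the gene of RANK, had 826, 1006 and 1050 in KI and 1134, 634 and 774.5 in WT, with overlapping groups and a log2 difference of 0.22 (adjusted p = 0.557); its probe set reads the transcript and checks nothing about a motif.

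The autophagy genes that passed the test were nearly all higher in KI macrophages. Of 35 measured genes 13 passed, an adjusted p under 0.05 by limma over all 18193 genes, and 12 of them rose and 1 fell. Rises were found for Ulk2 and Rb1cc1 of the ULK complex, Uvrag, Wipi1, the conjugation genes Atg7, Atg12 and Atg16l2, the LC3 and GABARAP genes Map1lc3b, Gabarap and Gabarapl1, and Vps11 and Vps18 of HOPS. The gene that fell was Atg4a, a protease that trims GABARAP proteins. Among all genes 26.8% passed, 11.9% higher and 14.9% lower. All 35 autophagy genes lay above the median of all probe sets, and among the 10941 genes that did so 40.9% passed, 17.8% higher and 23.1% lower. The 37.1% of autophagy genes that passed were therefore close to the share of genes of that brightness, while 34.3% were higher and 2.86% lower. The median log2 change was 0.18 for the autophagy genes and -0.00 for all genes. KI and WT arrays did not overlap for 18 of the 35 genes, 15 with KI above and 3 with KI below. That is 51.4%, against 45.2% of all genes and 64.4% of the genes above the median of all probe sets. Without KI 1 and WT 1, 11 rose, 3 fell and the median change was 0.08.

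**Figure D1:**
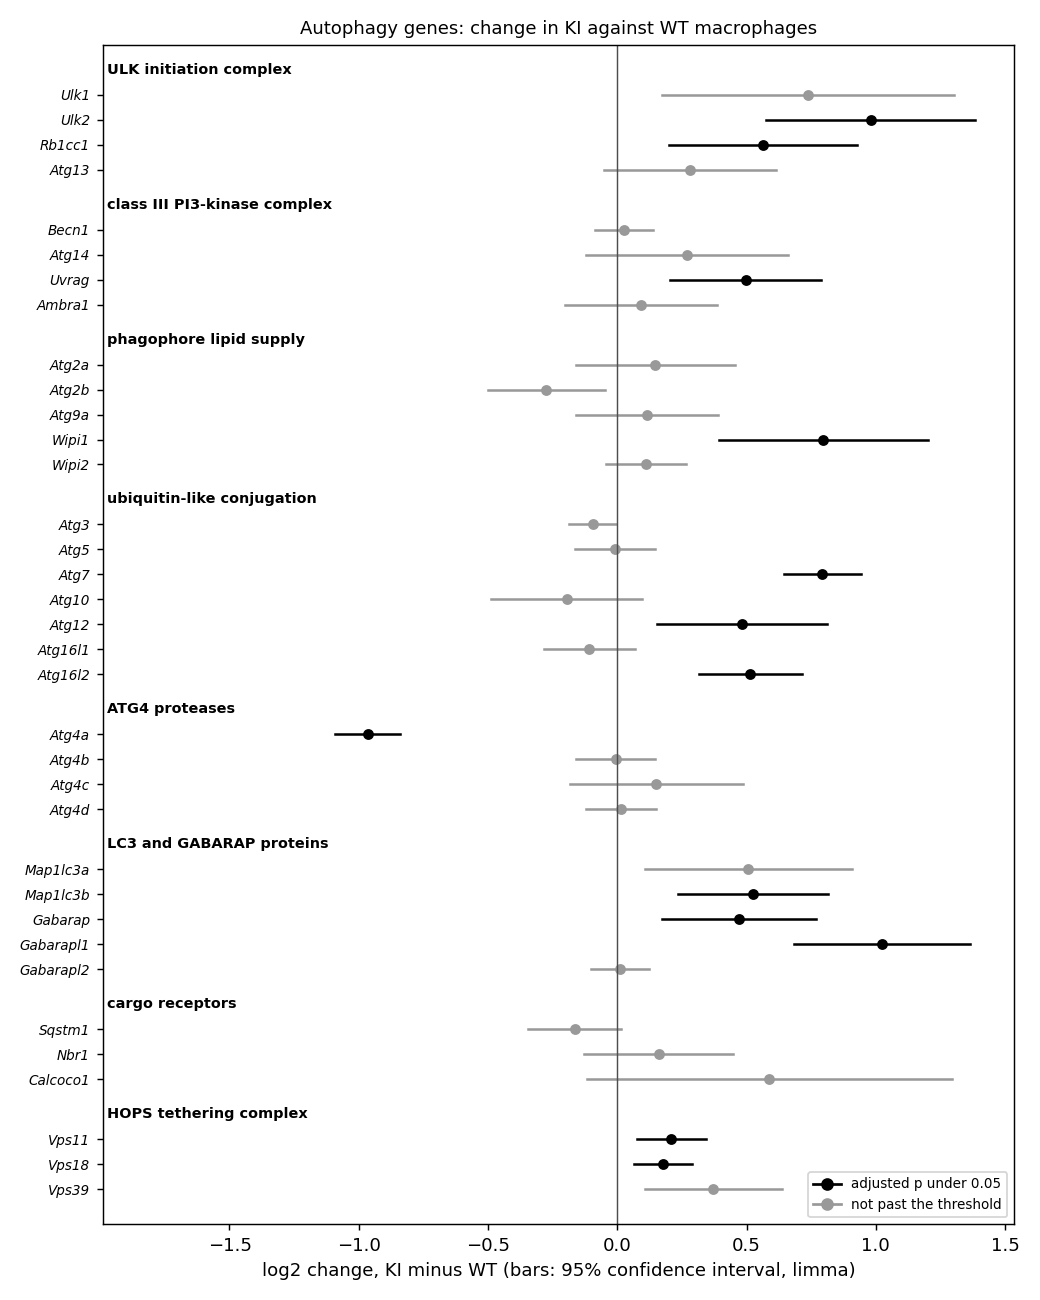
Log2 change (KI minus WT) of the 35 measured autophagy genes on the x axis, grouped by role, with 95% confidence intervals from limma; black marks genes with an adjusted p under 0.05. The 12 black points right of 0 lie between 0.18 and 1.02, and Atg4a is the 1 black point on the left, at -0.97.

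How many genes passed in each direction depended on the scaling between arrays, since a scaling to spike-ins shifts all genes of an array by 1 constant. Scaling to 9 newer hybridisation spike-in probe sets, whose log2 level was higher by 0.21 in KI, moved the median of all genes to -0.20. It gave 8 of the 35 autophagy genes higher and 6 lower, against 1281 higher and 4946 lower of all 18193 genes. Scaling to 9 older spike-in probe sets, higher by 0.53 in KI, moved that median to -0.515. It gave 0 autophagy genes higher and 6 lower, against 421 higher and 8198 lower of all 18193 genes. Relative to the median of all genes, the median of the autophagy genes was higher by 0.18 as deposited, by 0.17 with the newer and by 0.16 with the older spike-ins. Atg4a, Atg2b, Atg3, Atg10 and Sqstm1 were lower with both, joined by Atg5 with the newer and by Atg16l1 with the older. From here on, directions refer to the values without such scaling.

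**Figure D2:**
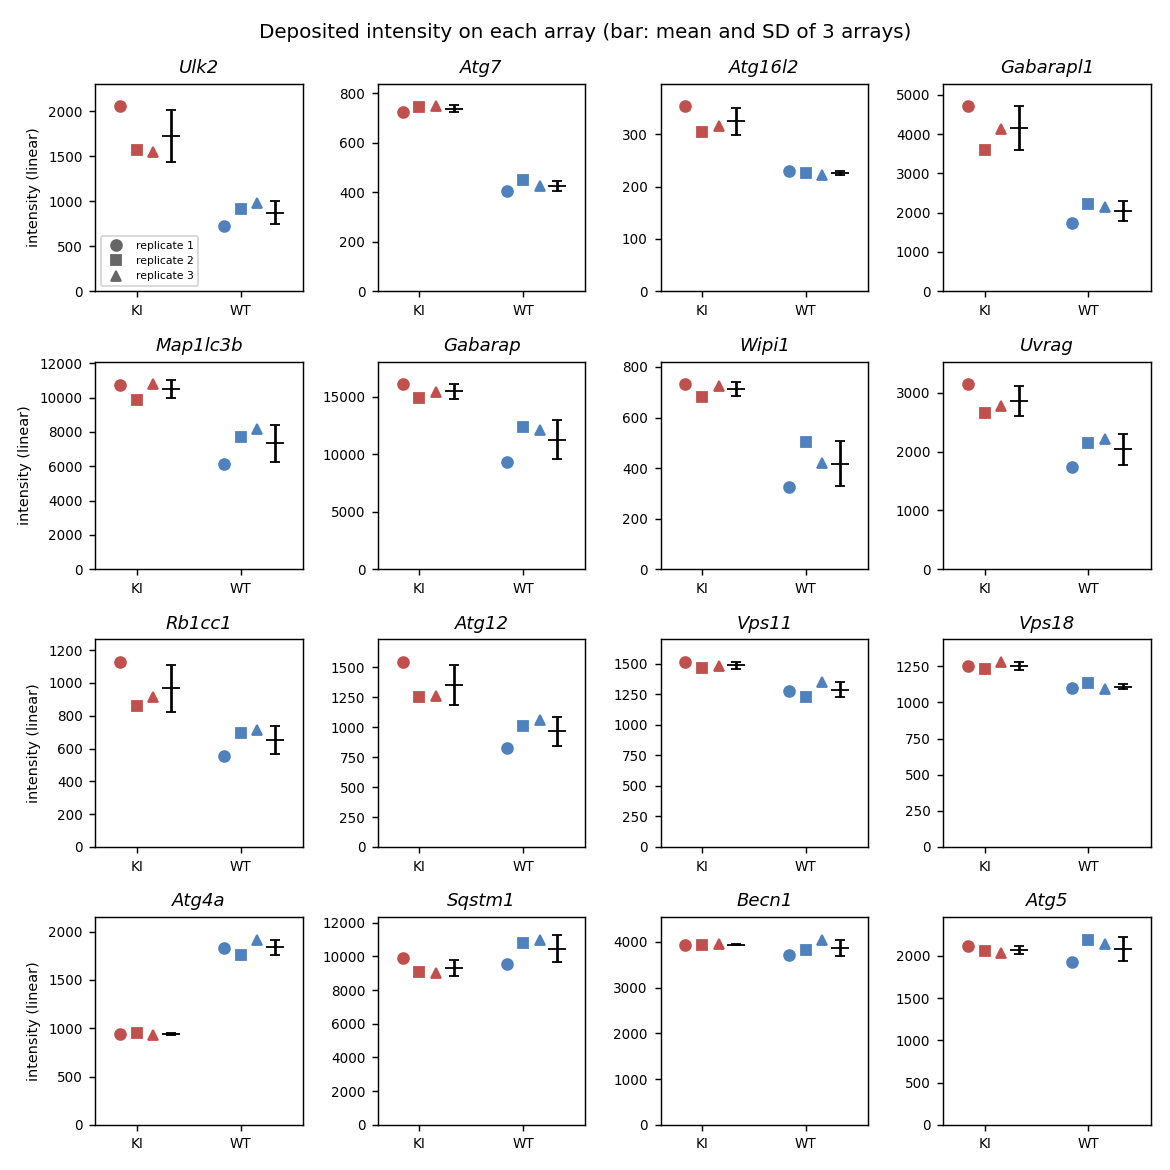
Deposited linear intensity (y axes, from 0) of 16 autophagy genes on each KI and WT array, with the replicate number as the marker and the mean and SD of 3 arrays as a bar. KI and WT points are apart for the 12 genes that rose and for Atg4a, and overlap for Sqstm1, Becn1 and Atg5.

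The ULK complex phosphorylates the proteins that start a phagophore, and 2 of its 4 genes rose. Ulk2, 1 of its kinase genes, had intensities of 2062, 1572 and 1550 on KI arrays 1 to 3, against 729, 915 and 981.5 on WT arrays 1 to 3. Every KI value of Ulk2 was above every WT value. The log2 change was 0.98 (SE 0.16, adjusted p = 0.0117), or 0.72 without KI 1 and WT 1. Rb1cc1 encodes FIP200, the scaffold of the complex, and had 1130, 857 and 917 in KI against 557, 693 and 713 in WT. Its groups did not overlap either (log2 change 0.56, SE 0.15, adjusted p = 0.0396), and the change was 0.33 without KI 1 and WT 1. Ulk1, the better known kinase, had 1649, 1136 and 1248 in KI against 600.1, 878 and 957 in WT. Those arrays were also apart, with KI 1 the highest and WT 1 the lowest, and the log2 difference of 0.74 (95% interval 0.17 to 1.30) did not pass (adjusted p = 0.0642). Without KI 1 and WT 1 the rise of Ulk1 was 0.38 and passed (adjusted p = 0.0445). Atg13, an adaptor of the kinases, had overlapping groups with a difference of 0.28 (adjusted p = 0.186).

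In the class III PI3-kinase complex, which makes the lipid mark that recruits later factors, Uvrag rose and the other 3 listed genes did not pass. UVRAG takes part in the form of the complex that acts on endosomes and autophagosome maturation. Its intensities were 3153, 2653 and 2781 in KI, against 1743, 2143 and 2218 in WT, with no overlap. The log2 change was 0.50 (SE 0.12, adjusted p = 0.0306), or 0.32 without KI 1 and WT 1. Becn1, the core subunit Beclin 1, had 3933, 3922 and 3945 in KI and 3720, 3826 and 4052 in WT. The KI values of Becn1 lay inside the WT range, and the 95% interval of its log2 difference ran from -0.09 to 0.14. Atg14, which directs the complex to the phagophore, differed by 0.27 (interval -0.12 to 0.66) and Ambra1, a regulator of Beclin 1, by 0.09 (interval -0.20 to 0.39). The further subunits Pik3c3 and Pik3r4 were counted with the other core genes and are named here after their values were seen. They differed by 0.06 (adjusted p = 0.677) and 0.27 (adjusted p = 0.0861) without passing.

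Among the 5 listed genes of lipid supply to the phagophore, Wipi1 rose and none fell. WIPI1 binds the lipid made by the PI3-kinase. Its intensities were 734, 682 and 726 in KI and 327, 503.5 and 420.3 in WT. All KI values of Wipi1 were above the WT values, and the WT arrays were spread more widely than the KI arrays. The log2 change was 0.80 (SE 0.16, adjusted p = 0.0205), or 0.61 without KI 1 and WT 1. Atg2b, a lipid transfer protein, had 456, 422 and 392 in KI against 558, 488 and 490.3 in WT. All KI values of Atg2b lay below the WT values, and the log2 difference of -0.27 did not pass (SE 0.09, adjusted p = 0.0779). The differences of its paralogue Atg2a (0.15), of the scramblase gene Atg9a (0.11) and of Wipi2 (0.11) came with overlapping groups.

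The conjugation system split between its members: 3 of 7 rose and 4 did not pass. ATG7 is the E1-like enzyme that activates both ATG12 and the LC3 proteins. Atg7 had 722, 742 and 748 in KI and 406, 448 and 423 in WT, with small spread in both groups. Its log2 change was 0.79 (SE 0.06, adjusted p = 0.00209), a 1.73-fold rise, and 0.78 without KI 1 and WT 1. Atg16l2, a paralogue of Atg16l1, had 354, 304 and 315 in KI and 231, 226.5 and 223 in WT. Its rise was 0.51 on the log2 scale (SE 0.08, adjusted p = 0.00984). Atg12, the ubiquitin-like protein joined to ATG5, had 1546, 1248 and 1256 in KI against 829, 1009 and 1059 in WT. The groups of Atg12 did not overlap, and its log2 change of 0.48 (SE 0.13, adjusted p = 0.0459) was 0.28 without KI 1 and WT 1.

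The partners of these conjugates did not pass. ATG5 accepts ATG12, and Atg5 had 2115, 2053 and 2036 in KI against 1925, 2192 and 2137 in WT. Its groups overlapped, and the 95% interval of the log2 difference was -0.17 to 0.15. Atg16l1, which brings the conjugate to the membrane, differed by -0.11 (interval -0.29 to 0.07). Atg3, the E2-like enzyme for LC3 proteins, had 5926, 6119 and 6055 in KI against 6494, 6321 and 6520 in WT. The KI values of Atg3 lay a little below all WT values, and the difference did not pass (log2 difference -0.10, SE 0.04, adjusted p = 0.111). Atg10, the E2-like enzyme for ATG12, differed by -0.20 (adjusted p = 0.286), and by -0.36 (adjusted p = 0.031) without KI 1 and WT 1.

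ATG4 proteases cut LC3 and GABARAP proteins before they are joined to lipid and also free them from it. Of the 4 genes Atg4a fell and the others did not pass. Atg4a had 936, 950.1 and 933 in KI, against 1830, 1762 and 1918 in WT. The KI mean was 0.512 times the WT mean as fitted, with an SD of 9.22 among KI arrays and 78.0 among WT arrays. The log2 change was -0.97 (SE 0.05, 95% interval -1.09 to -0.84, adjusted p = 0.00104), and it was -0.97 without KI 1 and WT 1. Atg4b, the protease with the broadest activity, had 952.5, 954 and 971 in KI and 1030, 955 and 908 in WT, with overlapping groups and an interval of -0.16 to 0.15. Atg4d differed by 0.01 (interval -0.12 to 0.15) and Atg4c by 0.15 (interval -0.18 to 0.48).

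LC3 and GABARAP proteins coat the phagophore and bind cargo receptors, and 3 of their 5 genes rose. Gabarapl1 had 4718, 3599 and 4122 in KI against 1745, 2212 and 2153 in WT. All KI values of Gabarapl1 were above all WT values. The log2 change was 1.02 (SE 0.14, adjusted p = 0.00685), or 0.82 without KI 1 and WT 1. It was the 1 gene of the 35 that passed with at least a 2-fold change. Of all 18193 genes 959 (5.27%) did so, and of the 10941 genes above the median of all probe sets 927 did. Map1lc3b, the LC3 protein most used to mark autophagosomes, had 10757, 9882 and 10809 in KI against 6144, 7679 and 8180 in WT. Its groups were apart (log2 change 0.52, SE 0.12, adjusted p = 0.0256), and so were those of Gabarap, with 16116, 14882 and 15364 in KI against 9284, 12320 and 12132 in WT (0.47, SE 0.12, adjusted p = 0.0379). WT 1 was the lowest array for all 3 genes, and without KI 1 and WT 1 the changes of Map1lc3b and Gabarap were 0.38 and 0.31. Map1lc3a had 4411, 3146 and 3546 in KI against 2190, 2760 and 2840 in WT. These did not overlap, but the difference of 0.51 did not pass (SE 0.16, adjusted p = 0.0708) and was 0.25 without KI 1 and WT 1. Gabarapl2 had 2911, 2857 and 2941 in KI and 2993, 2775 and 2875 in WT, with overlapping groups and an interval of -0.10 to 0.12.

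Cargo receptors hold material to be degraded and bind LC3 proteins, and none of the 3 measured genes of the list passed. Other receptors were counted with the other genes of the pathway below. Sqstm1 encodes p62, which also binds the RANK adaptor TRAF6. It had 9885, 9042 and 9027 in KI against 9556, 10816 and 11000 in WT. KI 1 was above WT 1, so the groups overlapped, and the log2 difference was -0.16 (SE 0.07, adjusted p = 0.157). Without KI 1 and WT 1 it was -0.27 and passed (adjusted p = 0.0106). Nbr1, a receptor related to p62, differed by 0.16 (interval -0.13 to 0.45). Calcoco1, a receptor for endoplasmic reticulum, was dim, with 173, 103 and 114 in KI against 61.2, 92.5 and 106 in WT, and its difference of 0.59 had an interval of -0.12 to 1.29 and was 0.13 without KI 1 and WT 1.

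The HOPS complex tethers autophagosomes and endosomes to lysosomes. All 3 of its genes among the members had KI above WT on every array, and 2 passed with small changes. Vps11, a core subunit, had 1517, 1463 and 1483 in KI against 1279, 1231 and 1353 in WT. Its log2 change was 0.21 (SE 0.05, adjusted p = 0.0373). Vps18, another core subunit, had 1252, 1228 and 1282 in KI against 1099, 1131 and 1096 in WT, a log2 change of 0.18 (SE 0.04, adjusted p = 0.0365). Both changes turned to negative values with the older spike-ins, and that of Vps18 also with the newer. Without KI 1 and WT 1 they were 0.19 (adjusted p = 0.114) and 0.17 (adjusted p = 0.0744) and did not pass. Vps39, which joins the complex to late endosomes, had 1934, 1512 and 1572 in KI against 1286, 1227 and 1345 in WT, and its difference of 0.37 did not pass (SE 0.11, adjusted p = 0.0526). Other subunits were counted with the genes of fusion with the lysosome and are named here after their values were seen. Vps33a rose by 0.59 (adjusted p = 0.0128) and Vps41 by 0.49 (adjusted p = 0.0297). Vps16 differed by 0.15 without passing (adjusted p = 0.0973).

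Where a gene had several probe sets, they mostly gave 1 direction. Of the 35 genes 29 had more than 1 probe set, and for 23 at least 2 lay above the median of all probe sets. In all but 4 of those 23 genes the bright probe sets shared a sign. In a fit over all 45037 non-control probe sets no autophagy gene had probe sets that passed in opposite directions. All 4 probe sets of Ulk2 passed as higher, with log2 changes of 0.59 to 1.02, as did both of Gabarapl1 (1.02 and 1.20) and 3 of 4 of Map1lc3b (0.33, 0.52 and 0.70). Atg7 had 2 of 4 that passed, and Wipi1 3 of 6. Adjusted over probe sets, Rb1cc1 (adjusted p = 0.0557), Gabarap (0.0551) and Atg12 (0.0636) did not pass. The signs were mixed for Atg4b, Gabarapl2, Nbr1 and Wipi2. For Atg4b the brightest probe set differed by -0.01, the next by 0.41, which did not pass, and a dim one by 0.36, which did (adjusted p = 0.0259). For Wipi2 they were 0.11 and -0.50, neither past the threshold.

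**Figure D3:**
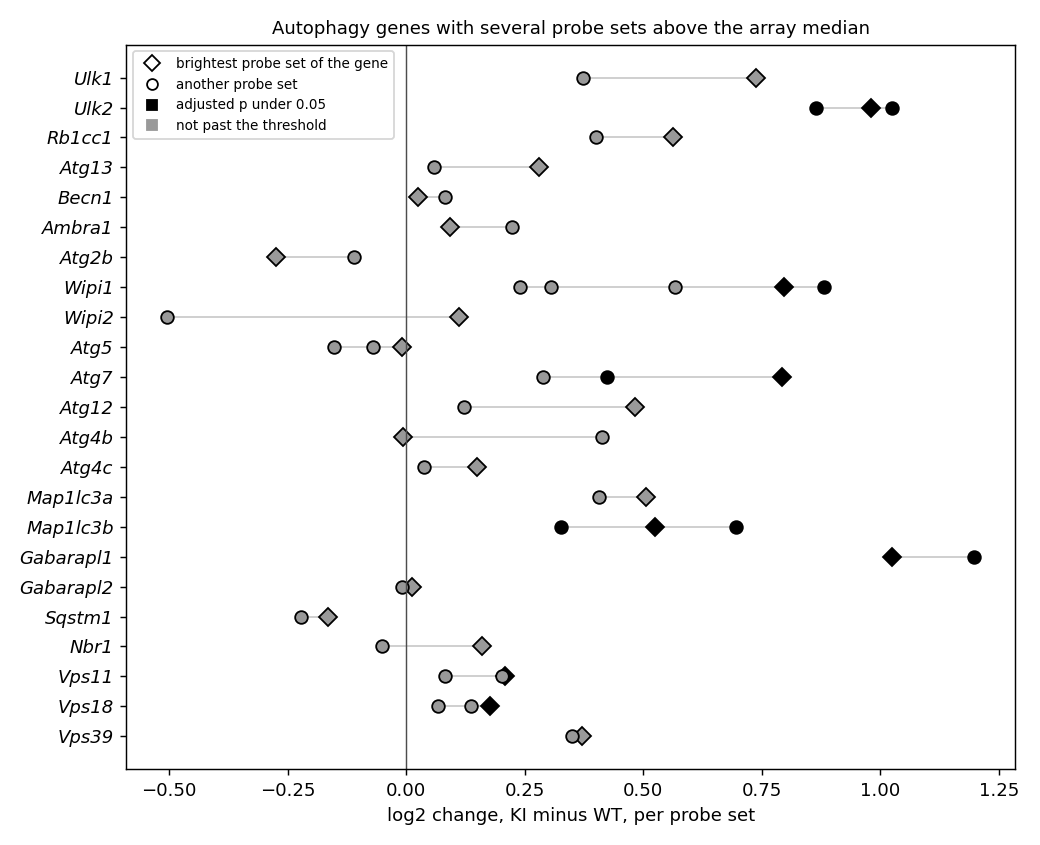
Log2 change (KI minus WT, x axis) of every probe set above the median of all probe sets for the 23 autophagy genes with at least 2 of them; diamonds mark the brightest probe set and black marks an adjusted p under 0.05 over 45037 probe sets. The probe sets of Ulk2, Gabarapl1 and Map1lc3b all lie right of 0 and are black, while those of Wipi2 and Atg4b lie far apart.

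The calls varied in how much they rested on single arrays. Atg4a, Atg7, Atg16l2, Gabarapl1 and Ulk2 passed in each of the 6 fits that left out 1 array. Their log2 changes then ranged from -0.996 to -0.934 for Atg4a, 0.76 to 0.83 for Atg7, 0.45 to 0.56 for Atg16l2, 0.917 to 1.122 for Gabarapl1 and 0.85 to 1.07 for Ulk2. The other 8 called genes kept their sign but missed the threshold in 4 or more of the 6 fits. Rb1cc1 (0.45 to 0.65), Atg12 (0.38 to 0.55) and Vps18 (0.16 to 0.19) missed it in all 6, with adjusted p of up to 0.14. Uvrag (0.39 to 0.56) and Map1lc3b (0.40 to 0.61) missed it without KI 1, KI 2, KI 3 or WT 2, and Wipi1 (0.63 to 0.94) without KI 1, KI 2, KI 3 or WT 3. Gabarap (0.34 to 0.54) passed in the fit without WT 1 alone, and Vps11 (0.18 to 0.25) in the fit without WT 3 alone. With KI 1, KI 2 or KI 3 left out 4 autophagy genes rose, with WT 1, WT 2 or WT 3 left out 8, 5 or 7 did, and the count over all genes fell as well, to between 2011 and 4381. KI 1 was the highest KI array for 25 of the 35 genes and WT 1 the lowest WT array for 22. Each sample's description holds a running number, and 5 autophagy genes rose with it as a covariate. Those were Ulk2, Atg7, Atg16l2, Gabarapl1 and Vps39, of which Vps39 had not passed in the reported fit. The numbers of KI 2 and KI 3 lay above those of all WT arrays, and that of KI 1 lay within the WT range. The running number was thus partly tied to genotype, and this fit cannot fully separate the effects of the number and of genotype. Of the 13 called genes only Atg4a passed under all 19 alternatives run.

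**Figure D4:**
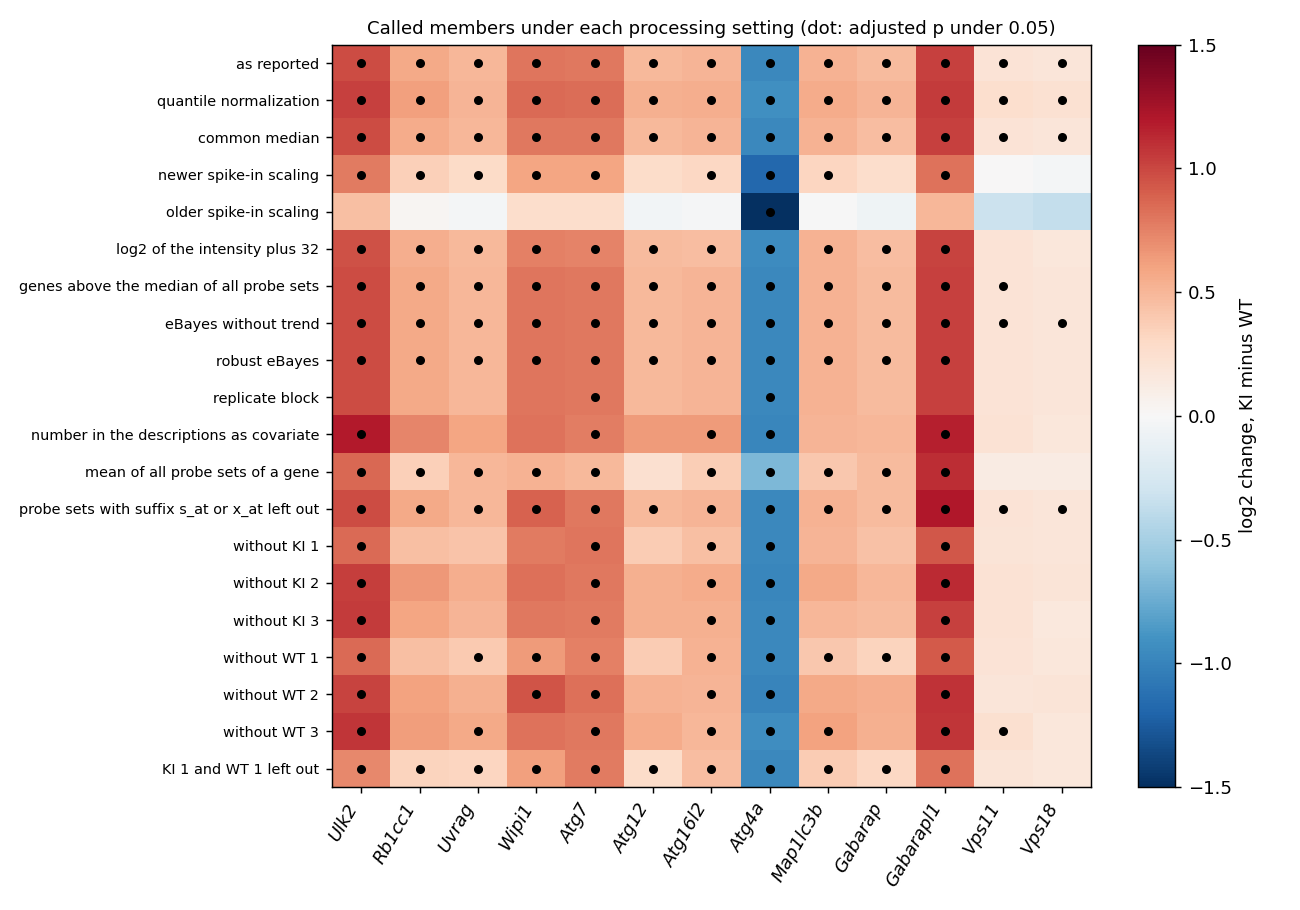
Log2 change (colour, KI minus WT) of the 13 autophagy genes that passed, in columns, under the reported fit and the 19 alternatives, in rows; a dot marks an adjusted p under 0.05. Atg4a has a dot in every row, Atg7 in every row but that of the older spike-ins, and the row of the older spike-ins is pale or blue for most genes.

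Markers of cell state moved with genotype, and those of other cells did so only in part. Of 7 macrophage markers 6 were higher, with summed intensities of 125210 to 129401 on KI arrays against 86985 to 105016 on WT arrays. Of 7 osteoclast markers 6 were lower, with sums of 28805 to 31962 in KI against 63506 to 71849 in WT. The 9 neutrophil and progenitor markers, all above the median of all probe sets, summed to 22290 to 43860 in KI against 15960 to 19995 in WT, with 1 of them higher. Of 5 erythroid and megakaryocyte markers Pf4 and Itga2b were above that median, and Pf4 alone was higher (means of 8014 in KI and 2447 in WT). Pf4 made up most of the sums of 7354 to 9033 in KI against 2351 to 3246 in WT. Itga2b, Klf1, Hba-a1 and Alas2 had overlapping groups. Stromal markers summed to 2558 to 9838 in KI and 2548 to 8590 in WT, and those of B cells (341.5 to 408 in KI and 293 to 456 in WT), T and NK cells (212 to 219.7 in KI and 199 to 222 in WT) and mast cells (169 to 188 in KI and 161 to 198 in WT) overlapped between genotypes, with 0 of 5 mast cell markers above the median. The part of these markers in the values of the autophagy genes was not tested.

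Among other genes of the pathway more rose than fell, in a list that joins genes that carry out autophagy with genes that restrain it, such as Mtor. Of 54 listed, 52 were measured, and 21 rose (40.4%) and 3 fell (5.77%), with a median log2 change of 0.25. Among all genes 11.9% were higher and 14.9% lower. Of the 52 genes 51 lay above the median of all probe sets, and among all genes that did so 17.8% were higher and 23.1% lower. In either direction 46.2% of the 52 passed, against 40.9% of the genes of that brightness. Among 11 genes of fusion with the lysosome 9 rose and none fell. Plekhm1, an adaptor of RAB7 and HOPS that is mutated in osteopetrosis, averaged 4519 ± 435 in KI and 2284 ± 156 in WT (SD, n = 3 each), a log2 change of 0.98 (SE 0.09, adjusted p = 0.003). Lamp2, a lysosomal membrane protein, rose by 1.03 (SE 0.25), Snap29, a SNARE of autophagosome fusion, by 0.91 (SE 0.14) and Fyco1, a RAB7 adaptor for transport along microtubules, by 0.66 (SE 0.14).

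Of 14 other core genes 4 rose: Wdfy3, a scaffold for the removal of protein aggregates (1.25, SE 0.17), Tecpr1, a tether that binds the ATG12 and ATG5 conjugate (1.17, SE 0.22), Rubcn, a partner of the UVRAG complex (0.68, SE 0.17), and Atg101, a partner of ATG13 (0.24, SE 0.06). Of 8 cargo and mitophagy receptors 3 rose, among them the endoplasmic reticulum receptor Retreg1 (0.96, SE 0.08, adjusted p = 0.00257) and Wdr81, a partner of p62 in clearing protein aggregates (0.78, SE 0.10), and 2 fell. Those were the mitochondrial receptors Bnip3, with 2161 ± 122 in KI and 4044 ± 1073 in WT (SD, n = 3 each, log2 change -0.87, adjusted p = 0.0344), and Phb2 (-0.83, SE 0.11). Named after their values were seen, 2 other mitophagy genes of this list went the other way. Fundc1 was the third gene that rose (0.43, SE 0.07, adjusted p = 0.00954). Pink1 had KI above WT on every array, and its difference of 1.07 did not pass (adjusted p = 0.0846). Of 19 genes of transcription and nutrient control 5 rose and 1 fell. The sestrin gene Sesn1, whose protein restrains mTORC1, had 11713, 9905 and 10059 in KI against 2456, 4294 and 4903 in WT, a log2 change of 1.499 (SE 0.27, adjusted p = 0.0145) with no overlap. Trp53inp2, a protein that binds LC3 proteins, rose by 1.01, the forkhead factor gene Foxo3, which in mouse muscle is known to act on Map1lc3b and Gabarapl1, by 0.91, and Tfe3, a relative of TFEB, by 0.53. Named after their values were seen, Mtor, the kinase that holds the ULK complex inactive, was the gene that fell (log2 change -0.37, SE 0.05, adjusted p = 0.00817), while Tfeb, the regulator of lysosomal and autophagy genes, differed by 0.31 without passing (adjusted p = 0.207). Also named in that way, Sesn2 (-0.01), Foxo1 (-0.07) and Mitf (0.06) had overlapping groups and did not pass. Ddit4 had KI below WT on every array and did not pass (-0.68, adjusted p = 0.15). Of the 19 genes 12 had a positive and 7 a negative change. Leaving out 1 array ended the call of Rubcn and Atg101 in all 6 fits (log2 changes of 0.55 to 0.78 and 0.18 to 0.27), and of Bnip3 (-1.11 to -0.73) in all but that without WT 1. It ended those of Lamp2 (0.74 to 1.18), Trp53inp2 (0.77 to 1.17) and Tfe3 (0.41 to 0.62) without KI 1, KI 2, KI 3 or WT 2. Without KI 1 or KI 3 it ended those of Sesn1 (1.20 to 1.70), Tecpr1 (0.95 to 1.29) and Foxo3 (0.74 to 1.00), and without KI 3, WT 1 or WT 2 that of Fyco1 (0.52 to 0.74). With the newer and older spike-ins 16 and 3 of the 52 were higher and 6 were lower in each, and without KI 1 and WT 1 21 were higher and 3 lower.

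**Figure D5:**
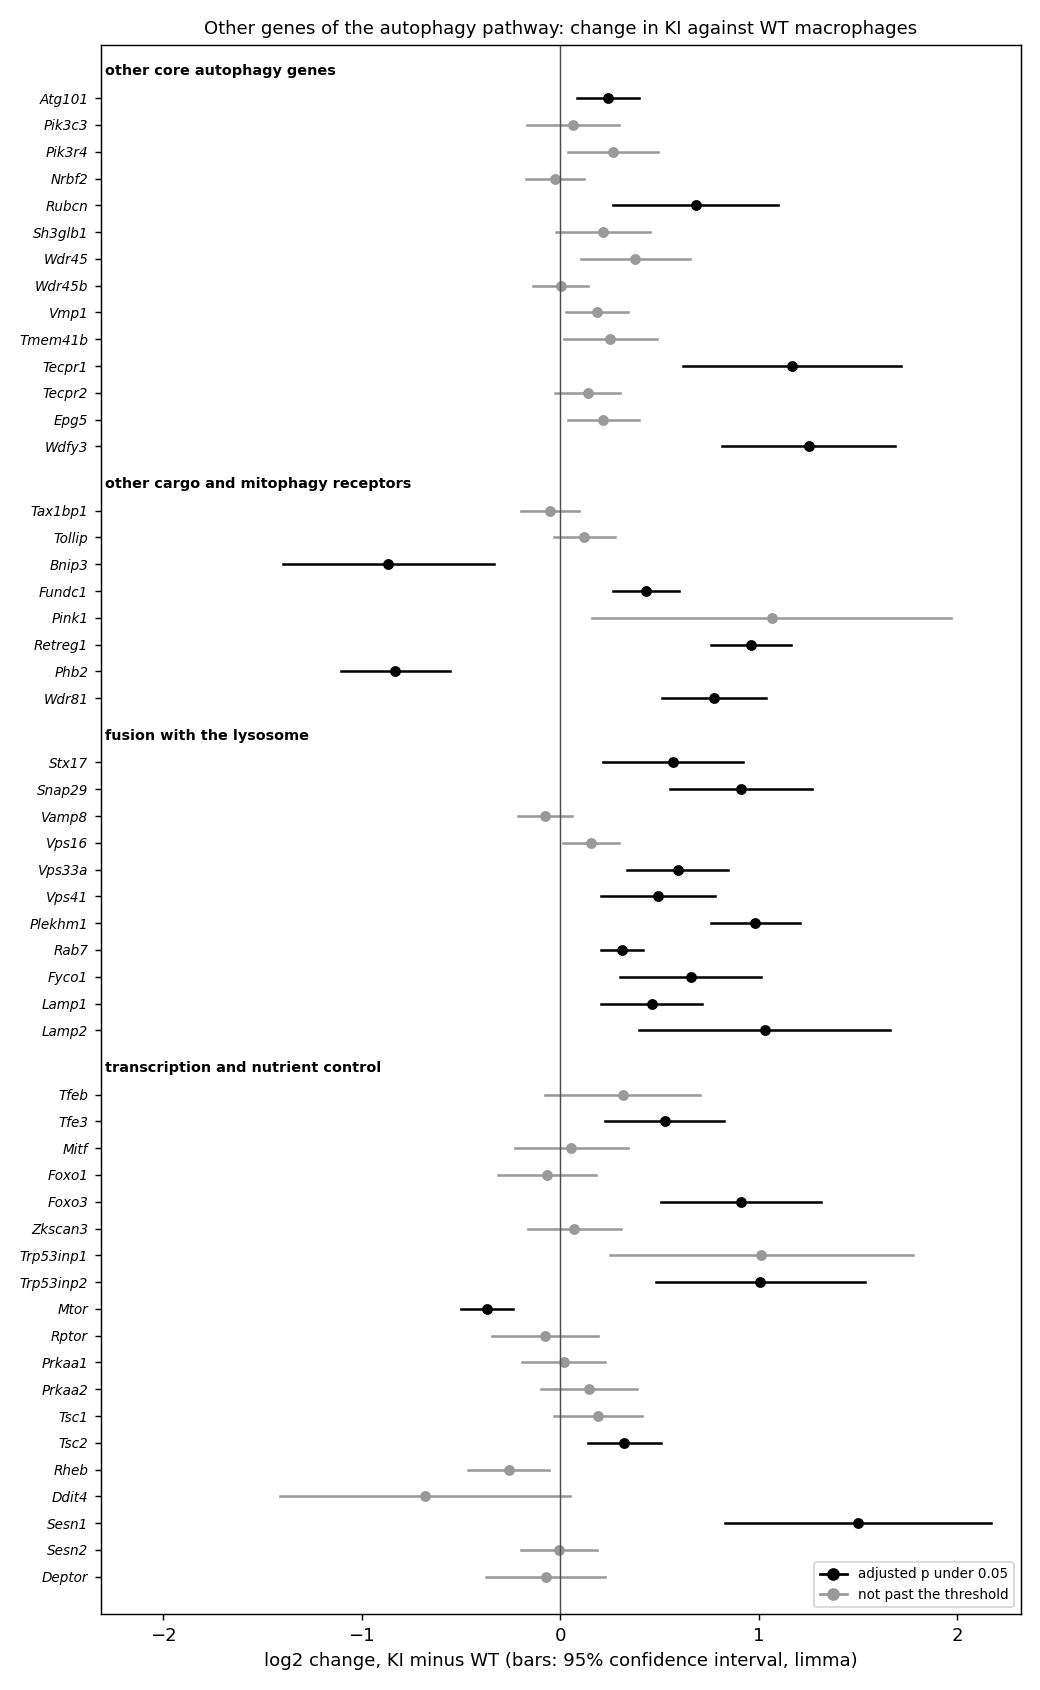
Log2 change (KI minus WT, x axis) with 95% confidence intervals from limma for 52 other genes of the pathway in 4 groups; black marks an adjusted p under 0.05. The group of fusion with the lysosome holds 9 black points, all right of 0, and Bnip3, Phb2 and Mtor are the 3 black points on the left.

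The sequence before the starts of these genes was searched for motifs of factors known to act on autophagy genes. RefSeq promoters (GRCm38.p6) were matched for 28 of the 35 genes, and the 250 bases before each listed start were searched on both strands for CACGTG, the E-box core of the site bound by TFEB and TFE3, and for GTAAACA, a forkhead element. CACGTG lay in the windows of 3 of the 28 genes, Atg3, Atg5 and Atg7, against 6.02% of all 32851 promoters. The listed start of Atg7 lies 28.0 kb inside the gene of the RefSeq table, so its window is not the sequence upstream of the gene, and that of Atg5 lies 17 bases inside. For 15 genes a listed start lay exactly where the gene begins in the RefSeq table. Among them CACGTG lay in 1, Atg3, against 5.57% of the 19827 such promoters, and in 0 of the 6 of them that passed. GTAAACA lay in 0 of the 28, against 3.17% of all promoters. These matches are letters in a window and not binding sites. Shown 5′ to 3′ are the windows of the gene with the largest rise (Gabarapl1), the gene with an E-box at the gene start (Atg3) and the gene that fell (Atg4a, the first of 2 listed starts), with CACGTG in capitals.
Gabarapl1, chr6:129532942-129533191, + strand: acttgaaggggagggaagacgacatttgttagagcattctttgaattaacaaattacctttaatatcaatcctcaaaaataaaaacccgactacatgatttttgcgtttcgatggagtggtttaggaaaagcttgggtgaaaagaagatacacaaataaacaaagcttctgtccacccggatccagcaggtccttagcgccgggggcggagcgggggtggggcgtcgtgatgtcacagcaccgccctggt
Atg3, chr16:45158579-45158828, + strand: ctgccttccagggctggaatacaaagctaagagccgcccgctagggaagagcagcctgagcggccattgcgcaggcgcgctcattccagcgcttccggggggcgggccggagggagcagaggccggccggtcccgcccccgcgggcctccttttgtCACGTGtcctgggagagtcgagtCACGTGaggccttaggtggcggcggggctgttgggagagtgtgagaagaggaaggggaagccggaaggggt
Atg4a, chrX:140953595-140953844, + strand: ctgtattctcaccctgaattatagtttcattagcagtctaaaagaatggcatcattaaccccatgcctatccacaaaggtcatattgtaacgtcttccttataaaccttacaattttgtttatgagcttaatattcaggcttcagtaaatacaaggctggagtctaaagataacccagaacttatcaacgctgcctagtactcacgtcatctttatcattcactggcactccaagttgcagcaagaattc
The pair of E-boxes of Atg3 began 94 and 71 bases before the start. Gabarapl1 and Atg4a, with the largest changes in each direction, had neither exact sequence in the windows searched. Other forms of the forkhead element were not searched for, so these windows may hold them.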

How the data were processed

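RNA from 3 KI and 3 WT samples was hybridised to Affymetrix mouse 430 2.0 arrays after labelling from the 3′ end with biotin, per the labels' protocols. The authors deposited 1 linear intensity for each probe set and array, made with Affymetrix Expression Console per the submitters' processing notes; its version is not given in the sources used here, nor is the summarisation or normalization. Median intensities were nearly equal between arrays (83.01 to 84.79), so the deposited intensities were taken as normalized. Quantile normalization gave a median log2 change of 0.23 for the autophagy genes, against 0.18 as deposited.

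Of 45101 probe sets, 64 controls were left out. Of the others, 34945 had 1 gene symbol in the platform annotation, 932 several and 9160 none, and 34741 matched a RefSeq table (GRCm38.p6) that updated symbols. Intensities were floored at 16 (5.46% of values lay below) and log2 transformed. Each of 18193 genes was represented by its brightest probe set, and KI was compared with WT by limma 3.58.1 in R 4.3.3 (lmFit, eBayes with an intensity trend), with Benjamini-Hochberg adjustment over all genes and a threshold of 0.05. The fit was tested on simulated data. The 36 members, the other lists and the alternatives were chosen with earlier results of these data known. Genes were named by a rule: every member, and up to 4 genes of each other list that passed without overlap, by size of change. Those said to be named after their values were seen fall outside it. With 6 arrays, precision is limited by their number.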

Additional observations from a re-analysis of the deposited data

How the results depend on the processing

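The counts of members that passed, 12 higher and 1 lower, stayed within 1.5 times under quantile normalization, a common median, log2 of the intensity plus 32, the filter to genes above the median of all probe sets, both other variance priors, the mean of all probe sets of a gene and without s_at and x_at probe sets. The older spike-ins gave 0 higher and 6 lower (8619 genes in all; other pathway genes 3 higher and 6 lower), and the newer spike-ins 6 lower (other pathway genes 6 lower). The running number of the descriptions as a covariate gave 1671 genes, with 5 members higher and 6 and 0 other pathway genes higher and lower. The running number was partly tied to genotype, so these counts do not show how much of the difference went with the number alone. Without KI 1 and WT 1, 3 members were lower. Leaving out 1 array gave 2011 to 4381 genes, 4 to 8 members higher, 1 to 2 members lower, 7 to 19 other pathway genes higher and 2 to 3 lower. Fewer arrays enter those fits.

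Same-numbered KI and WT arrays deviated against each other (correlations of -0.365, -0.261 and -0.266). These values do not settle whether the numbers pair the samples, since paired arrays could also deviate in opposite directions. With the replicate number as a block 344 genes passed, with 1 member higher (Atg7) and 1 lower (Atg4a). Of the other pathway genes 1 was higher and 0 were lower in that fit.

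Of the 35 members 27 had a positive change as reported, 17 with the newer and 7 with the older spike-ins. Among the named genes that passed as reported, the sign turned with the older spike-ins for Uvrag (-0.034), Atg12 (-0.047), Atg16l2 (-0.016), Map1lc3b (-0.0054), Gabarap (-0.0605), Vps11 (-0.32), Vps18 (-0.35), Atg101 (-0.29) and Tfe3 (-0.0042), with the newer for Vps18 (-0.028), and Atg4b, which had not passed, did so as higher with the mean of its probe sets (0.26, adjusted p = 0.0352). Apart from the shift of all genes by the spike-ins, the cause of these changes was not tested. Calcoco1 had the largest standard error of the members (0.28).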
